A study of Rattus norvegicus with 2 samples.

Results

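Chromatin modifiers and remodellers were taken as the rat genes whose symbols begin with Kdm, Kmt2, Setd, Hdac, Dnmt, Smarc, Chd, Kat, Ezh, Brd or Tet, which makes 11 families. Of 15443 genes named on the array, 56 belonged to these families, and they were covered by 72 probes. Genes were picked by symbol, but with earlier results of these data known, so the choice was not blind to the values. The rule left out 1 gene of the Kdm family, which is not described here.

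Total RNA came from primary neural precursor cells of the cortex of SD rat embryos at embryonic day 14, grown in N2 medium with 10 ng/mL bFGF, the basic fibroblast growth factor that keeps such cells dividing. The cells were transfected with 4 µg of plasmid, either the vector MSCV-IRES-EGFP alone or the same vector with rat Bcl-2, an inhibitor of apoptosis. Transfection was transient and no sorting of EGFP-positive cells is described, so cells without plasmid may be in every sample. Cells were then kept for 2 days either in N2 medium with bFGF or in NB medium from which bFGF had been withdrawn, so withdrawal and the change of medium cannot be told apart. By the labels, Cy5 (red) marked vector cells without bFGF on the withdrawal array and Bcl-2 cells with bFGF on the Bcl-2-labelled array, and Cy3 (green) marked vector cells with bFGF on both. Each comparison rests on 1 array with no dye swap and no replicate, so no test was possible and no difference below is a tested one.

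The members write, erase or read chemical marks on histones and DNA, or move nucleosomes along DNA. Kat enzymes acetylate histones and Hdac enzymes remove the acetyl groups. The Kmt2, Setd and Ezh families include enzymes that methylate lysines, and Kdm enzymes demethylate them. Brd proteins bind acetylated lysines, Dnmt enzymes methylate cytosine and Tet enzymes oxidise the methyl group. Smarc and Chd genes encode ATP-driven remodellers and their subunits, and the BAF remodeller is known to exchange paralogous subunits as neural progenitors become neurons.

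A log2 ratio below is red over green on 1 array, after background correction and loess normalization within the array. The scanner software marks a spot as well above background when its signal clears the local background by a set margin, and a probe was kept when it did so in at least 1 channel. On the withdrawal array 51 members were kept of 10852 genes, and on the Bcl-2-labelled array 50 members of 10241 genes. Kdm4d, Hdac2, Hdac9, Dnmt1 and Dnmt3l did not clear background in any of the 4 channels. Repeat spots of 1 probe differed by a median SD of 0.039 on the log2 scale on either array, which covers spot noise alone and nothing between cultures. No spot was saturated, and between 66.1% and 72.0% of gene spots were well above background in each channel.

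The direction of the Bcl-2-labelled array is not settled. The log2 ratios of the arrays had r = -0.67 over all gene spots, and -0.12 with the ratios of the scanner software. The labels give both green channels the same control, yet over 109 member spots the log2 difference of the green signals (Bcl-2-labelled minus withdrawal) had an SD of 0.42. Against the red signals of the withdrawal array, the same green signals had a difference with an SD of 0.11. For the red signals of the Bcl-2-labelled array, the SD was 0.13 against the green and 0.39 against the red of the withdrawal array. Whether the channels of an array hold the samples that the labels give was not tested, and with the sign of an array turned every higher value of that array reads as lower.

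Few members passed 1.5-fold on the withdrawal array. Hdac11, Smarca2, Smarca1 and Smarcd3 were higher in vector cells without bFGF than in vector cells with bFGF, and Setd6 was lower. These are 4 of 51 members higher (7.84%), where 7.94% of all genes were, and 1 lower (1.96%), where 2.79% were, so the shares were close to those of all genes. With the sign turned, 1 member would be higher and 4 lower. Hdac11 alone was at least 2-fold higher, as were 2.42% of all genes, and no member was 2-fold lower, as were 0.47% of all genes. In these bulk samples, fewer cells of a type and less RNA per cell cannot be told apart.

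The Bcl-2-labelled array gave the same 4 genes on the other side. Hdac11, Smarcd3, Smarca1 and Smarca2 were at least 1.5-fold lower in Bcl-2 cells than in vector cells with bFGF, and no member was higher. These are 4 of 50 members lower (8%), where 6.64% of all genes were lower, and 0 higher, where 2.29% were. With the sign turned, 4 would be higher and 0 lower. Hdac11 alone was at least 2-fold lower, as were 2% of all genes, and no member was 2-fold higher, as were 0.557% of all genes. Per the labels both arrays share their control, and their values are given side by side. The overlap of the calls between the arrays was not set against that of all genes, so it is not read as a result.

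**Figure D1:**
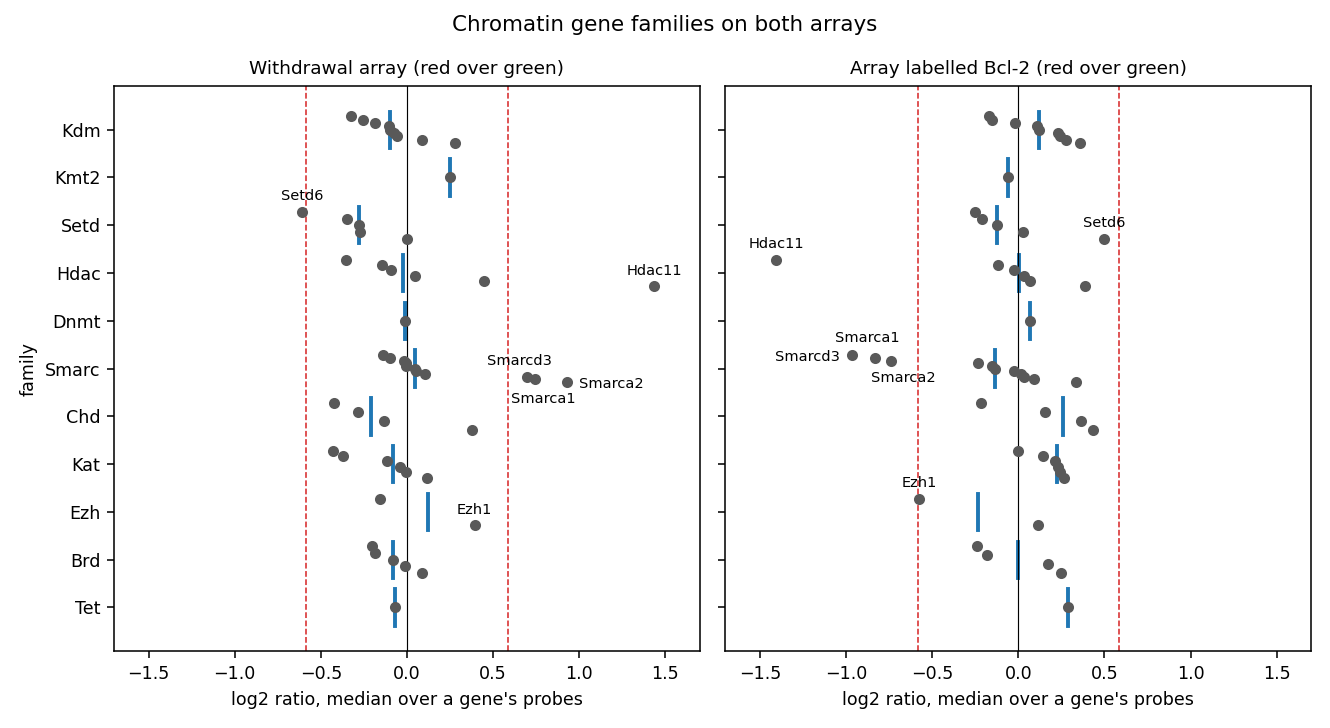
Log2 ratio of red over green (x axis) for each measured member, by family (y axis), on the withdrawal array (left) and the Bcl-2-labelled array (right). Each point is 1 gene, the blue bar is the family median and the dashed lines mark 1.5-fold; Hdac11 lies farthest out on both arrays, at 1.43 and -1.40.

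Histone deacetylases are grouped into class I nuclear enzymes, class II enzymes that shuttle between nucleus and cytoplasm, and Hdac11, the single class IV enzyme. Hdac11 had a normalized signal of 2706 in vector cells without bFGF, against 1001 in vector cells with bFGF on the same array. Its signal was 957 in Bcl-2 cells and 2532 in vector cells on the Bcl-2-labelled array. The red signal of the withdrawal array and the green signal of the Bcl-2-labelled array were the high ones, and the remaining channels were close to each other. The log2 ratio was 1.43 on the withdrawal array, a 2.70-fold higher signal, and -1.40 on the Bcl-2-labelled array, a 2.65-fold lower one. This rests on 1 probe with 1 spot per array.

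The other measured deacetylases stayed under 1.5-fold after loess, which in so few genes is not a result. Of all genes, 7.94% were called higher and 2.79% lower on the withdrawal array, and 2.29% and 6.64% on the Bcl-2-labelled array. Among class I enzymes, Hdac8 had 0.45 on the withdrawal array, 0.67 under median centring, and -0.12 on the Bcl-2-labelled array. Hdac1, a catalytic subunit of the NuRD and Sin3 corepressors, had 0.04 and 0.03, and its 3 probes ran between -0.02 and 0.27 on the withdrawal array and between -0.32 and 0.08 on the other. Hdac3, the enzyme of the NCoR corepressors, had -0.14 and 0.07. Of the class II enzymes, Hdac5, a regulator of MEF2 targets, had -0.35 and 0.39, and Hdac10, a polyamine deacetylase, had -0.09 and -0.03. Hdac5 thus had the lowest ratio of the deacetylases on the withdrawal array and the highest on the Bcl-2-labelled array. Hdac2 and Hdac9, which were not well above background, have no ratio.

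The Smarc genes held 3 of the calls. Smarca2 (BRM) and Smarca4 (BRG1) are the alternative ATPases of the BAF complex. Smarca1 (SNF2L) and Smarca5 (SNF2H) are the alternative ATPases of ISWI remodellers. The stretches of 250 bases before the RefSeq starts of Smarca2, Smarca4 and Smarca1 are shown, because these genes carry the contrast between paralogues. They lie at chr1:233617121-233617370 (plus strand), chr8:28443569-28443818 (plus strand) and chrX:131944283-131944532 (minus strand) of GRCr8, and each is written 5′ to 3′ along its gene, with every GC box (GGGCGG on either strand) in capitals.
Smarca2: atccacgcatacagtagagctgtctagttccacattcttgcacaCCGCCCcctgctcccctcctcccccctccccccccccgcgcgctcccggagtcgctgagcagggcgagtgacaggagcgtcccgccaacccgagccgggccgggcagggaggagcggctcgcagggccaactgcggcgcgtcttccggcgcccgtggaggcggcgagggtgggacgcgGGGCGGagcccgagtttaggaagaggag
Smarca4: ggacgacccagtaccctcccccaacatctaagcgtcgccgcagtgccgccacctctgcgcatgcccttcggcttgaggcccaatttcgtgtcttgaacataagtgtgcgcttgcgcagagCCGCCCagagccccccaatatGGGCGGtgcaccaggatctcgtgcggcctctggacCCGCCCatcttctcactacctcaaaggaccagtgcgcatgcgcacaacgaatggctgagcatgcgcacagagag
Smarca1: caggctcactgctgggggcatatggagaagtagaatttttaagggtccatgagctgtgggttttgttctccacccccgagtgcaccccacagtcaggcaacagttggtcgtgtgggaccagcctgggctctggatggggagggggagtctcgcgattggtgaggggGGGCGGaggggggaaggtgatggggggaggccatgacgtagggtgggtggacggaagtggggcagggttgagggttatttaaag
Smarca2 had 2 GC boxes and 27 CpG dinucleotides in this window, Smarca4 3 boxes and 19 CpG, and Smarca1 1 box and 7 CpG. Of the 56 members, 47 had an entry among these promoter sequences, and 63.8% of them held a GC box, against 30.5% of all 33469 promoters. The median number of CpG was 16 in members and 5 in all promoters. Members had 1 promoter per gene, while every listed promoter was counted in the full set. That set was not limited to genes on the array, so the sets are unlike and the gap is not a trait of the members. Hdac11 and Ezh1 had no entry. A match is only a run of letters, and no binding was measured.

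Smarca2 had a signal of 4190 in vector cells without bFGF and 2201 in vector cells with bFGF. It had 2504 in Bcl-2 cells and 4172 in vector cells on the Bcl-2-labelled array. Its probe was printed 10 times, and the 10 log2 ratios ran between 0.87 and 0.98 on the withdrawal array (0.93 ± 0.044, SD over spots) and between -0.81 and -0.67 on the other (-0.74 ± 0.051). The spots of each array lay well apart from 0, which speaks of the spots and not of other cultures. Smarca4 had 5515 in vector cells without bFGF, against 5896 in vector cells with bFGF, and 5751 in Bcl-2 cells, against 5686 in vector cells. These are medians on the log2 scale over 2 unlike probes, with signals of 1403 and 21674 in vector cells without bFGF. The log2 ratios of Smarca4 were -0.10 and 0.02. On the Bcl-2-labelled array its 2 probes disagreed in sign, at -0.04 and 0.07. The log2 ratio of Smarca2 minus that of Smarca4 was 1.02 on the withdrawal array and -0.75 on the Bcl-2-labelled array.

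The ISWI ATPases showed a like contrast. Smarca1 had a signal of 681 in vector cells without bFGF, against 406 in vector cells with bFGF, and its log2 ratio was 0.74. It had 433 in Bcl-2 cells, against 770 in vector cells on that array, a log2 ratio of -0.83. Smarca5, which is known as the main ISWI ATPase of dividing cells, had 4371 in vector cells without bFGF and 4807 in vector cells with bFGF. It had 4941 in Bcl-2 cells and 3921 in vector cells, and its log2 ratios were -0.14 ± 0.024 and 0.33 ± 0.035 (SD over 10 spots). The log2 ratio of Smarca1 minus that of Smarca5 was 0.88 on the withdrawal array and -1.16 on the Bcl-2-labelled array, and median centring turned Smarca5 on the withdrawal array to 0.13. Neither value of Smarca5 passed 1.5-fold.

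**Figure D2:**
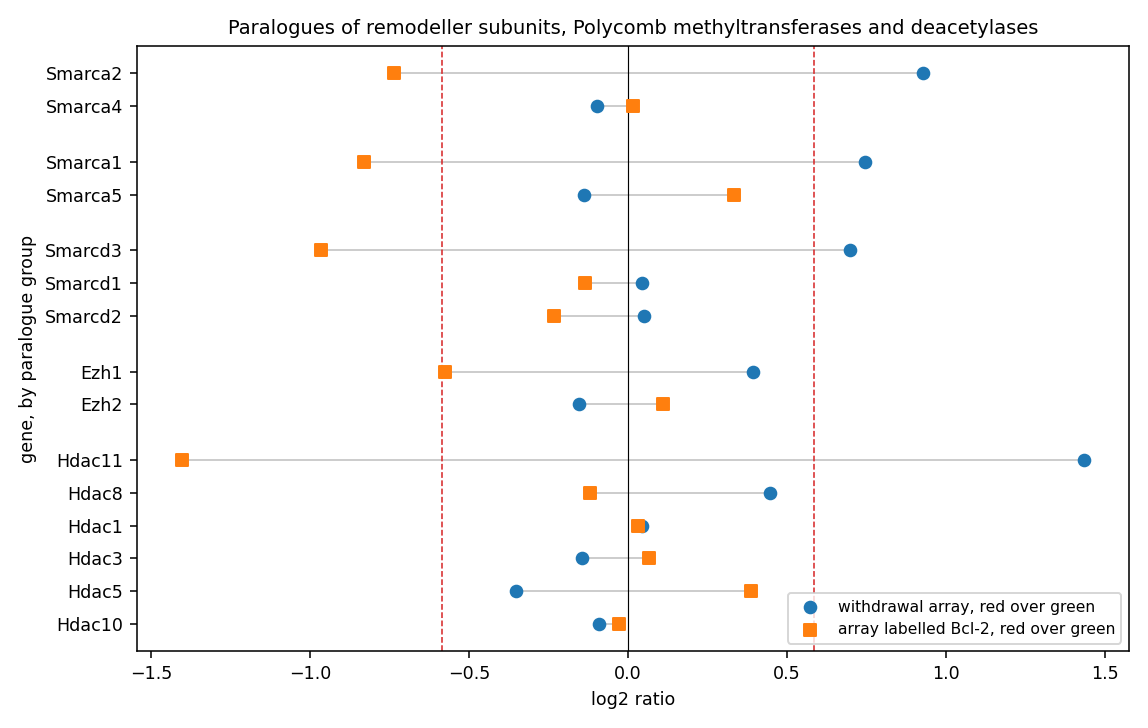
Log2 ratio of red over green (x axis) for paralogous genes (y axis, grouped), with circles for the withdrawal array, squares for the Bcl-2-labelled array and dashed lines at 1.5-fold. Smarca2, Smarca1, Smarcd3, Ezh1 and Hdac11 lie on opposite sides of 0 on the arrays, and Smarca4 and Hdac1 lie within 0.1 of 0.

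Smarcd1, Smarcd2 and Smarcd3 encode the alternative BAF60 subunits, of which Smarcd3 (BAF60c) links BAF to tissue-specific transcription factors. Smarcd3 had a signal of 1832 in vector cells without bFGF and 1128 in vector cells with bFGF, a log2 ratio of 0.70. It had 1016 in Bcl-2 cells and 1985 in vector cells, a log2 ratio of -0.97. Again the red channel of one array and the green channel of the other were the high ones. Smarcd1 had log2 ratios of 0.04 and -0.14, and Smarcd2 of 0.05 and -0.23. The ratio of Smarcd3 exceeded that of Smarcd1 by 0.66 on the withdrawal array and that of Smarcd2 by 0.65, and on the Bcl-2-labelled array the differences were -0.83 and -0.73. The core subunits that BAF complexes share lay near 0, Smarcb1 (SNF5) at 0.10 and -0.02 and Smarce1 (BAF57) at -0.00 and 0.04. Smarcad1, which acts at replicated heterochromatin, had -0.00 and 0.09, and Smarcal1, which anneals DNA at stalled forks, had -0.02 and -0.15.

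BAF subunits outside the Smarc names are sorted into those of progenitors and those of neurons. Of the progenitor subunits, Phf10 (BAF45a) stood at -0.74 on the withdrawal array, which passed 1.5-fold, and 0.45 on the Bcl-2-labelled array. Actl6a (BAF53a) had -0.42 and 0.49, Dpf2 0.05 and -0.10, and Ss18 -0.03 and 0.10. Of the neuronal subunits, Actl6b (BAF53b) had 0.24 on the withdrawal array, Dpf1 (BAF45b) -0.37 and 0.16, and Dpf3 (BAF45c) -0.21 and 0.20. In Bcl-2 cells the Actl6b signal was not well above background (97.9, against 127 in vector cells), and the gene was kept there through its green channel alone. The Actl6b ratio on the Bcl-2-labelled array therefore has no firm size. It depended on the processing, at -0.38 after loess and -2.61 with the scanner software. Ss18l1 (CREST) was well above background in the red channel of the withdrawal array alone, so no ratio is given for it.

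**Figure D3:**
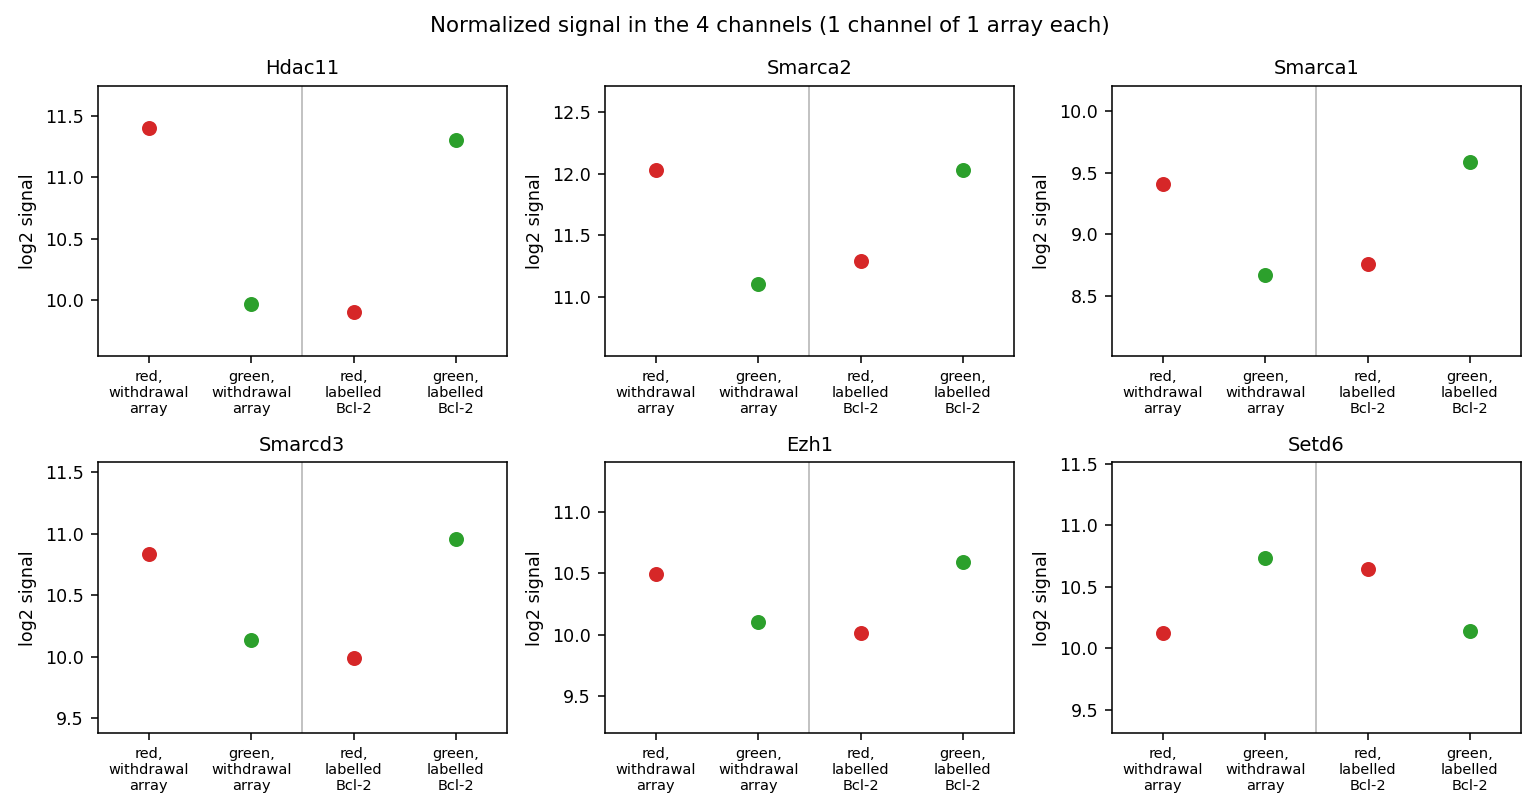
Normalized log2 signal (y axis) in each of the 4 channels (x axis) for 6 members, 1 point per channel, with each panel spanning the same range on the log2 scale. For all but Setd6, the red channel of the withdrawal array and the green channel of the Bcl-2-labelled array are the high ones, and for Setd6 they are the low ones.

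Ezh1 and Ezh2 are the alternative catalytic subunits of Polycomb repressive complex 2, which methylates lysine 27 of histone H3, and Ezh2 is known to prevail in dividing cells. Ezh1 had a signal of 1440 in vector cells without bFGF, against 1097 in vector cells with bFGF, and 1036 in Bcl-2 cells, against 1542 in vector cells. Its log2 ratios of 0.39 and -0.57 stayed under 1.5-fold on both arrays, while median centring gave 0.65 and -0.66, both past it. On the Bcl-2-labelled array a background offset of 10 gave -0.60 and the deposited value table -0.63, also past it. Ezh2 had 1912 in vector cells without bFGF and 2127 in vector cells with bFGF, and 1997 in Bcl-2 cells and 1848 in vector cells. Its log2 ratios were -0.15 and 0.11, so the ratio of Ezh1 minus that of Ezh2 was 0.55 and -0.69. A second Ezh1 probe was not well above background in any channel and was not used.

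Polycomb partners outside the families gave 20 measured genes with a median log2 ratio of -0.06 on the withdrawal array, which median centring in place of loess turned to 0.14, and 0.12 on the Bcl-2-labelled array. Among them Eed, the core subunit that binds methylated lysine 27, was 1.5-fold lower on the withdrawal array, at -0.59. This is 5% of the 20 genes, where 2.79% of all genes were lower. None of the 20 was called on the Bcl-2-labelled array, where 2.29% of all genes were called higher and 6.64% lower.

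Among the Setd genes, all 5 were measured. Setd6, a lysine methyltransferase known for methylating the NF-κB subunit RelA, had a signal of 1119 in vector cells without bFGF and 1705 in vector cells with bFGF. It had 1598 in Bcl-2 cells and 1130 in vector cells. The 10 spots of its probe gave log2 ratios of -0.61 ± 0.035 on the withdrawal array, past 1.5-fold, and 0.50 ± 0.032 on the Bcl-2-labelled array, short of it. Median centring gave -0.35 on the withdrawal array, which ended the call, and the scanner software gave 0.60 on the other, which passed. Setd5 had -0.35 and -0.21, Setdb1, which methylates lysine 9 of histone H3, had -0.28 and 0.03, Setd4 had -0.27 and -0.12, and Setd7 had -0.00 and -0.25. The family median was -0.28 on the withdrawal array, with all 5 values below 0, and it stayed below 0 in all 7 alternatives. It was -0.12 on the Bcl-2-labelled array and also kept its sign. Kmt2e (MLL5), the single Kmt2 gene named on the array, had 0.25 and -0.06, and its second value turned above 0 under 2 alternatives.

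The histone methyltransferases outside these families, 23 measured genes, had a median of -0.25 on the withdrawal array and 0.16 on the Bcl-2-labelled array, each with the same sign under every alternative. One of them (4.35%, against 7.94% of all genes), the arginine methyltransferase Prmt2, was at least 1.5-fold higher on the withdrawal array, at 0.63. On the Bcl-2-labelled array 1 was lower (4.35%, against 6.64% of all genes), the brain arginine methyltransferase Prmt8, at -0.95. Both shares lay below those of all genes. Prmt8 had 0.88 on the withdrawal array, where its kept probes disagreed in sign and it was therefore not called. The 7 measured COMPASS partners, which assist Kmt2 enzymes, had medians of -0.26 and 0.15. None of them was called on the withdrawal array, where 7.94% of all genes were called higher and 2.79% lower. Paxip1 (PTIP) was higher on the Bcl-2-labelled array, at 0.60, which is 1 of 7 genes, where 2.29% of all genes were higher.

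No lysine demethylase passed 1.5-fold, which in a family this small is not a result. Of all genes, 7.94% were called higher and 2.79% lower on the withdrawal array, and 2.29% and 6.64% on the Bcl-2-labelled array. On the withdrawal array the 9 measured Kdm genes ran between -0.33 for Kdm1b (LSD2) and 0.28 for Kdm4a (JMJD2A), and on the Bcl-2-labelled array those genes had 0.23 and -0.17. The family median of -0.10 became 0.17 under median centring, and that on the Bcl-2-labelled array was 0.12 and kept its sign. Kdm1a (LSD1), which removes methyl groups from lysine 4 of histone H3, had -0.25 and 0.28. Kdm6b (JMJD3), an eraser of the mark that Ezh enzymes write, had -0.10 ± 0.038 and 0.12 ± 0.046 (SD over 10 spots). The remaining measured members, Kdm2a, Kdm2b, Kdm4b, Kdm5b and Kdm8, lay between -0.18 and 0.09 on the withdrawal array and between -0.15 and 0.36 on the other.

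Outside the families, 2 of 5 measured demethylases and hydroxylases of the JmjC kind were lower on the withdrawal array, as were 2.79% of all genes. Jmjd6, a lysyl hydroxylase, was at -1.17 and had 0.89 on the Bcl-2-labelled array. Riox1, a ribosomal oxygenase, was at -0.63.

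The 6 measured acetyltransferases did not pass 1.5-fold after loess, which in so few genes is not a result. Of all genes, 7.94% were called higher and 2.79% lower on the withdrawal array, and 2.29% and 6.64% on the other. On the withdrawal array Kat2a and Kat14 passed 1.5-fold with the scanner software's ratio, at -0.76 and -0.67. With the value table they had -0.69 and -0.60, also past it. Kat2a (GCN5) had the lowest log2 ratio on the withdrawal array, -0.43, and had 0.24 on the Bcl-2-labelled array. Kat14, its partner in the ATAC complex, had -0.37 and 0.21, and Kat6a (MOZ) had the highest, 0.11, and 0.15 on the Bcl-2-labelled array. Kat5 (TIP60), Kat7 (HBO1) and Kat8 (MOF) ran between -0.12 and -0.01 on the withdrawal array and between -0.00 and 0.27 on the other. The family median of -0.08 on the withdrawal array became 0.19 under median centring, and the median of 0.22 on the Bcl-2-labelled array kept its sign.

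Readers of acetylation stayed under 1.5-fold after loess. Brd2, which binds acetylated histone H4, had the highest ratio of the family on the withdrawal array, 0.09, and had -0.18 on the Bcl-2-labelled array. Brd3 had -0.01 and -0.24, and Brd8, a subunit of the TIP60 complex, had -0.08 and 0.17. The 2 probes of Brd8 disagreed in sign on the withdrawal array, at -0.31 and 0.15. Brd1 was well above background in the red channel of the withdrawal array alone, with signals of 107 in vector cells without bFGF and 122 in vector cells with bFGF, and no fold is given for it.

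Among the Chd remodellers, Chd1, which binds methylated lysine 4 of histone H3, had log2 ratios of -0.42 and 0.36, the first being -0.64 with the ratio of the scanner software. Chd6 had -0.28 and 0.43, the largest of the family on the Bcl-2-labelled array, and Chd2 had -0.14 and -0.22. The median of the 4 genes was -0.21 on the withdrawal array, turning to 0.04 under median centring, and 0.26 on the Bcl-2-labelled array. Chd5, a neuronal remodeller, was well above background on the withdrawal array in vector cells without bFGF only, with a signal of 144, against 111 in vector cells with bFGF, so no fold is given there. On the Bcl-2-labelled array it had 140 in Bcl-2 cells and 126 in vector cells, a log2 ratio of 0.15. Signals this close to background gave a log2 ratio that depended on the processing, between 0.18 and 2.60 on the withdrawal array, where the probe was kept through its red channel alone.

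**Figure D4:**
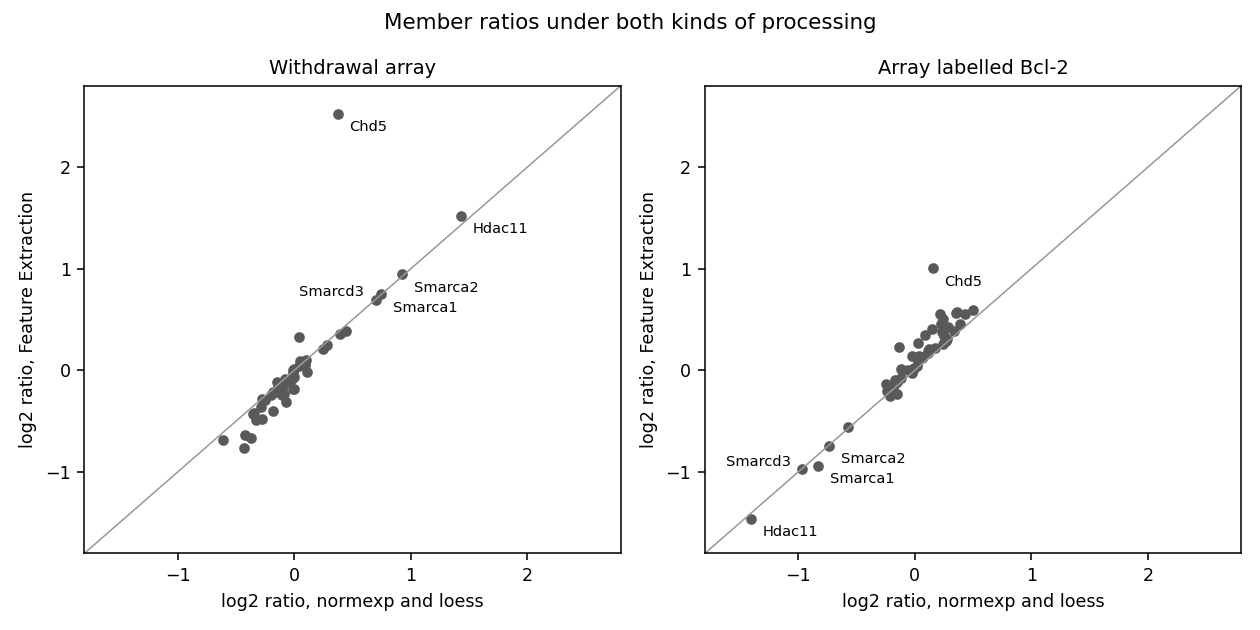
Log2 ratio of each measured member after normexp background correction and loess (x axis) against the ratio of the scanner software Feature Extraction (y axis), with the line of equality, for the withdrawal array (left) and the Bcl-2-labelled array (right). Hdac11, Smarca2, Smarca1 and Smarcd3 lie near the line, and Chd5 lies far above it, at 2.53 against 0.37 on the withdrawal array.

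NuRD joins Chd remodellers with Hdac1 and Hdac2, and 9 of its other subunits were measured. Their median was -0.15 on the withdrawal array, 0.18 under median centring, and 0.23 on the Bcl-2-labelled array, and none was called on either. Of all genes, 7.94% were called higher and 2.79% lower on the withdrawal array, and 2.29% and 6.64% on the other. The 12 measured remodeller subunits of other families had medians of -0.23 and 0.12. Of these, 2 were called lower on the withdrawal array (16.7%) and 2 higher on the Bcl-2-labelled array (16.7%). Hells (LSH), a remodeller needed for DNA methylation, was lower on the withdrawal array at -0.90 and had 0.77 on the other. Baz1a (ACF1), the partner of Smarca5, was lower at -0.73 and had 0.59.

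Enzymes that write and remove DNA methylation could be followed for few genes. Dnmt3a, a de novo methyltransferase, had log2 ratios of -0.01 and 0.07, and median centring turned the sign of each. Dnmt1, the maintenance enzyme, and Dnmt3l, a cofactor without catalytic activity, were not well above background in any channel. Tet3, the single Tet gene named on the array, had -0.07 and 0.29, of which the first turned above 0 under median centring. The 10 measured partners of DNA methylation and demethylation had medians of 0.01 and -0.03, and both signs turned with the ratios of the scanner software. On the Bcl-2-labelled array Apex1, a base excision repair nuclease, was higher at 0.69 and Gadd45g was lower at -0.62. Each is 10% of the 10 genes, where 2.29% of all genes were higher and 6.64% lower.

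Bcl-2 cells with bFGF were also set against vector cells without bFGF, by comparing the red channels across the arrays after scaling the signals between arrays. By the labels, 4 of 51 members were at least 1.5-fold lower in Bcl-2 cells, where 6.66% of all genes were. Of the members, 0 were higher, where 1.75% of all genes were. If the channels of 1 array were exchanged, other samples would be compared here, and the sign would not simply turn. Whether they were exchanged was not tested. Hdac11 alone passed 2-fold, lower, as did 2.08% of all genes, where 0.36% were 2-fold higher. It had a log2 difference of -1.50, Smarcd3 of -0.85, Smarca2 of -0.74 and Smarca1 of -0.65. Setd6 was at 0.51 and Ezh1 at -0.47, both under 1.5-fold. The median of the members was 0.04, and that of all genes -0.03. This comparison uses the same red signals as both ratios above and no further sample.

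The green channels, which the labels give the same control, were compared as the Bcl-2-labelled array over the withdrawal array. Of 50 measured members, 4 were at least 1.5-fold higher on the Bcl-2-labelled array, where 7.06% of all genes were, and 1 was lower, where 3.03% were. Hdac11 had a log2 difference of 1.34 and alone passed 2-fold, as did 2.12% of all genes, where 0.548% were 2-fold lower. Smarca2 was at 0.92, Smarca1 at 0.92, Smarcd3 at 0.82 and Setd6 at -0.59. The median of the members was -0.05.

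**Figure D5:**
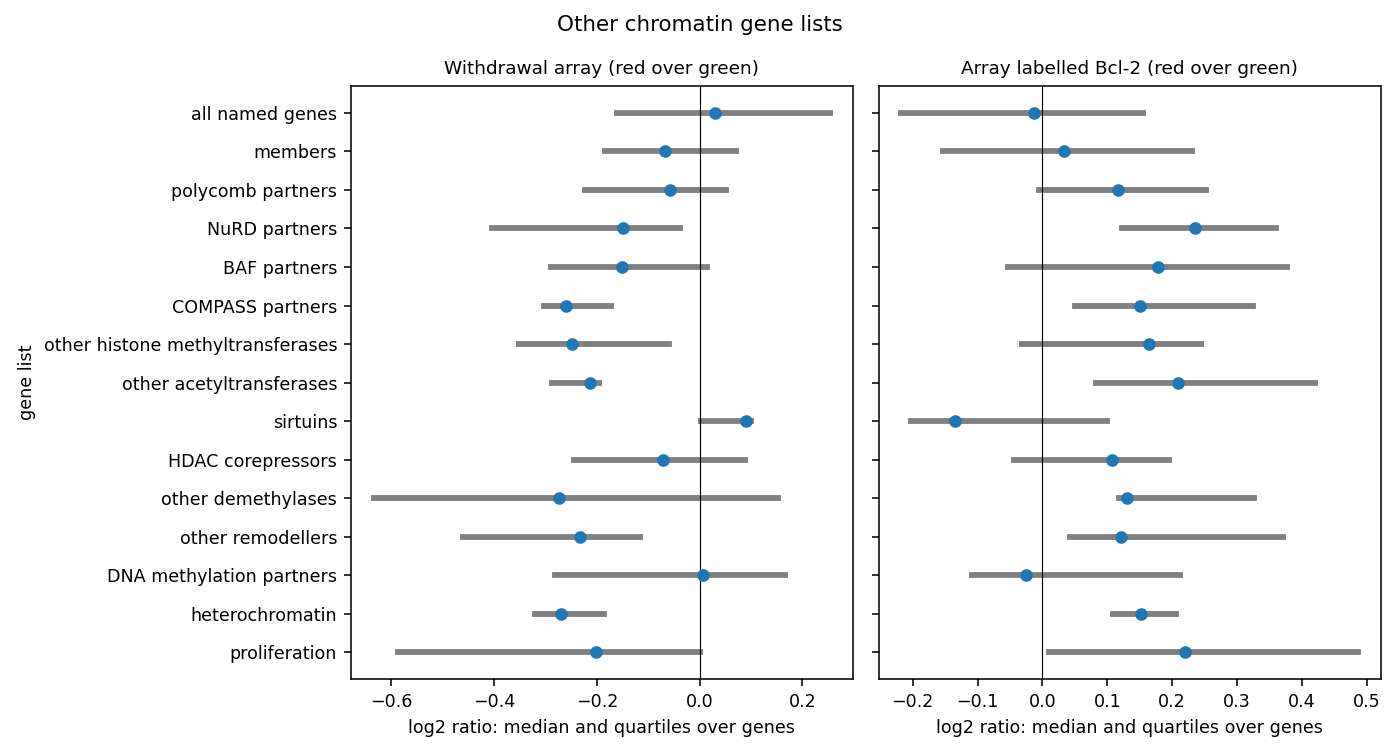
Median (point) and quartiles (bar) of the log2 ratio of red over green (x axis) for all named genes, the members and 13 other gene lists (y axis), on the withdrawal array (left) and the Bcl-2-labelled array (right). The members have medians of -0.07 and 0.03, and all named genes of 0.03 and -0.01.

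As a whole, the members lay slightly below all genes on the withdrawal array and slightly above them on the Bcl-2-labelled array. Their median log2 ratio was -0.07 on the withdrawal array, with 16 above 0 and 35 below. All genes had a median of 0.03 there, with 5887 above 0 and 4965 below. On the Bcl-2-labelled array the median of the members was 0.03, with 28 above 0 and 22 below. All genes had a median of -0.01 there, with 4939 above 0 and 5302 below. Median centring moved the median of all genes on the withdrawal array by 0.14 and that of the members to 0.17, and relative to all genes the members then differed by -0.0048 in place of -0.099. Of the 13 members with more than 1 kept probe, the probes disagreed in sign for 5 on the withdrawal array and for 7 on the other. Among all genes with more than 1 kept probe, they did so for 534 of 1863 and for 538 of 1738.

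Markers of several cell types moved with these ratios, and their part in them was not tested. All 10 precursor markers were measured, with 3 higher on the withdrawal array (7.94% of all genes were) and 3 lower on the Bcl-2-labelled array (6.64% of all genes were), and medians of 0.40 and -0.27. Their summed signal was 224981 in vector cells without bFGF and 151121 in vector cells with bFGF, and 166171 in Bcl-2 cells and 234653 in vector cells. Without Fabp7, the other 9 summed to 93364 in vector cells without bFGF and 96254 in vector cells with bFGF, and to 91042 in Bcl-2 cells and 93263 in vector cells. Vim had log2 ratios of -0.49 and 0.56. The cells thus expressed precursor markers in every channel.

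Of the astrocyte markers, 8 of 9 were measured, 6 were higher under withdrawal (7.94% of all genes were) and 5 lower on the Bcl-2-labelled array (6.64% of all genes were), and Gfap was not well above background on either. Their summed signal was 24559 in vector cells without bFGF and 8662 in vector cells with bFGF, and 8960 in Bcl-2 cells and 24319 in vector cells. For neurons, 8 of the 9 markers on the array were measured, 4 were higher under withdrawal and 2 lower in Bcl-2 cells, and Syt1 was not well above background, beside the same 7.94% and 6.64% of all genes. Their sums were 20732 in vector cells without bFGF and 13221 in vector cells with bFGF, and 13779 in Bcl-2 cells and 19792 in vector cells. The sums of both lists were high in the channels where Hdac11, Smarca2, Smarca1 and Smarcd3 were high. This was not particular to these lists. The sums of the precursor (with Fabp7), fibroblast, HDAC corepressor and sirtuin lists were also higher there, and that of the proliferation list was lower. Single genes weighed heavily in these sums. In vector cells without bFGF, Sin3b held 22134.5 of the corepressor sum of 38922, and Sirt5 held 16847 of the sirtuin sum of 21439. Of the 10 measured corepressors, 7 had a log2 ratio below 0 on the withdrawal array.

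Fibroblast and meningeal markers had 2 of 8 measured genes higher on the withdrawal array, beside 7.94% of all genes, and 4 of 7 lower on the Bcl-2-labelled array, beside 6.64%. The 7 measured on both summed to 8642 in vector cells without bFGF and 5260 in vector cells with bFGF, and to 4661 in Bcl-2 cells and 10261 in vector cells. Of the 16 measured proliferation genes, 4 were lower on the withdrawal array (2.79% of all genes were), Cdc6 at -1.12 being the lowest, and 2 were higher on the Bcl-2-labelled array (2.29% of all genes were). Their median of -0.20 on the withdrawal array turned to 0.06 under median centring. None of the 8 measured oligodendrocyte markers was called on either array. Of 7 microglia and blood markers, 5 were measured and 1, Cd68, was higher on the Bcl-2-labelled array at 0.75, while Ptprc and Itgam were not well above background. Of 7 endothelium and pericyte markers 3 were measured and none was called.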

How the data were processed

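Total RNA was measured on 2 two-colour arrays of 1 slide, 1 array per comparison. Per the file headers, the deposited intensity values are medians over the pixels of spot and local background, not normalized, from Feature Extraction 11.5.1.1 with protocol GE2_1105_Oct12 on a G2505C scanner, array design 028282 and build rn4. Version 8.5.1.1 is given per the submitters' processing notes. Also deposited were a log10 ratio (red over green) per spot and 0 or 1 marks for spots that are outliers, saturated or clear of background. The authors' deposited value table holds a ratio per array with medians of 0.932 and 0.944, and its scale, centring and direction are unstated. Set against the scanner ratios of 28395 probes, its first column equalled the withdrawal ratio for 100% of them within 0.05 on the log2 scale after a constant. The second equalled the product of both arrays' ratios for 100%, and the ratio of its own array for 7.06%. The alternative therefore used the quotient for that array.

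Signals were corrected with normexp (offset 50), normalized by loess within each array with control spots at weight 0, and scaled between arrays by Aquantile for comparisons across arrays, with limma 3.58.1 in R 4.3.3, and summarised in Python 3.11.15. Outlier spots were left out, repeat spots were averaged, and a gene took the median of its kept probes. A call is 1.5-fold or more with all kept probes of 1 sign. Of 30367 probes, 18355 were named through RefSeq accessions of GRCr8, used for names and promoter sequences alone. The normalization was tested on simulated data.

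Members, lists and settings were chosen with earlier results of these data known. Genes were named by rule, namely the extremes of each family on the withdrawal array, every member past 1.5-fold, the Dnmt, Tet, Ezh, Smarca, Chd and Hdac members, the progenitor and neuronal BAF subunits, and up to 3 called genes per other list on the withdrawal array. Further members, Cd68, Fabp7, Vim, Paxip1, Prmt8, Apex1, Gadd45g and undetected markers were named after their values were seen, to complete counts. The values of 1 gene that the rule would name are not reported here. The number of arrays limits the precision, and no p-value is given. Alternatives were the scanner log ratio, offset 10, median centring, stricter and no filters on dim probes, the brightest probe, the value table and other scalings between arrays.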

Additional observations from a re-analysis of the deposited data

Results flagged for a closer look

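For 4 members the ratio passed 1.5-fold on both arrays in opposite directions. Hdac11 was at 1.43 (log2) on the withdrawal array and at -1.40 on the Bcl-2-labelled array. Smarca2 had 0.93 and -0.74, Smarca1 had 0.74 and -0.83, and Smarcd3 had 0.70 and -0.97. With 1 array per comparison, the difference between the arrays was not tested. Over all gene spots the log2 ratios of the arrays had r = -0.67 after loess, and -0.12 with the ratios of the scanner software. Opposite signs after loess were therefore not particular to these members. How many of all genes passed 1.5-fold on both arrays was not counted, so this overlap of calls is not read as a result. By the labels the arrays have 1 control in common, yet over 109 member spots the log2 difference of the green signals had an SD of 0.42. The direction of the Bcl-2-labelled array is not settled, and with its sign turned these 4 members would be higher on both arrays.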

How the results depend on the processing

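The higher call of Hdac11, Smarca2, Smarca1 and Smarcd3 on the withdrawal array, and their lower call on the Bcl-2-labelled array and between the red channels, remained under every alternative run. Over these, the log2 ratio of Hdac11 ran between 1.43 and 1.69 on the withdrawal array and between -1.53 and -1.40 on the other. The median of the members on the withdrawal array took values of -0.11 (Feature Extraction ratio) and 0.17 (median centring). Members called lower there numbered 4 with the Feature Extraction ratio, 0 with median centring, which ended the call of Setd6, and 3 with the value table, against 1 as reported, so the higher share of the calls was 55.6%, 100% and 62.5%, against 80%. On the Bcl-2-labelled array the median was 0.14 with the Feature Extraction ratio, -0.016 with median centring, 0.075 with the brightest probe and 0.072 with the value table. Members called higher there numbered 2 with the Feature Extraction ratio and 1 with the value table, against 0, so the higher share was 33.3% and 16.7%, against 0%. Those called lower there numbered 5 with offset 10, with median centring and with the value table, against 4. Between the red channels the median was 0.16 with the Feature Extraction signals, which called 3 members higher, and channels centred on their medians called 1, against 0, so the higher share was 42.9% and 20%, against 0%. Between the green channels the median was -0.30 with centred channels and -0.15 with the Feature Extraction signals, against -0.05. The cause of these moves was not tested. Of the members, 25 of 51 on the withdrawal array and 37 of 50 on the other kept 1 sign in all settings. No paired analysis was possible because each comparison has 1 array, and for the same reason no replicate could be left out. Members not well above background have no ratio at this signal.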

Other observations

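The remaining chromatin groups had 4 to 10 measured genes each and no call. On the withdrawal array 7.94% of all genes were called higher and 2.79% lower, and on the Bcl-2-labelled array 2.29% and 6.64%. The lack of calls in groups this small is not a result. The 6 measured acetyltransferases outside the Kat family, Crebbp (CBP) and Ncoa2 among them, had medians of -0.21 on the withdrawal array and 0.21 on the Bcl-2-labelled array, with no call. The 5 measured sirtuins, deacetylases that use NAD, had 0.09 and -0.13, of which the first turned to -0.03 with the Feature Extraction ratio, and no call. The 10 measured HDAC corepressors had -0.07 and 0.11 with no call, and the first became 0.16 under median centring. The 4 measured heterochromatin genes had -0.27 and 0.15 with no call, and the first became 0.06 under median centring.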
